A study of Homo sapiens with 4 samples.

Results

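Zinc finger (ZNF) genes were examined here as sources of chromatin-associated RNA. Members were the protein-coding RNAs whose symbol is ZNF followed by a number, and 31 of 2435 protein-coding RNAs (2637 RNAs in all) met this rule. The RNAs were measured by GRID-seq, which joins an RNA through a linker to the DNA it lies beside in fixed nuclei, so that every sequenced molecule pairs an RNA with a DNA site. The cells were K562, a human leukaemia line that carries the BCR-ABL1 fusion. One group carried the RUNX1 R320* change, a premature stop codon in a blood transcription factor, and the other had wild-type RUNX1 (WT). Each group had 2 libraries, 4 in all, fixed with 2 mM DSG for 45 minutes and 3% formaldehyde for 10 minutes. The labels name neither separate cultures nor the number of mutant clones. Each connection, a pair of an RNA and an active enhancer or promoter, has 1 score per genotype pooled over the libraries, listed only when above 1.2. There is thus no replicate spread and no test of any difference given here, and "not listed" does not mean absent. Sequencing depth is unknown. In such bulk data, fewer cells with a contact and less RNA per cell cannot be told apart.

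C2H2 zinc finger proteins bind DNA through strings of short fingers that each hold a zinc ion. Many of them carry a KRAB domain, which recruits the corepressor TRIM28 (KAP1) and with it the H3K9 methyltransferase SETDB1, and silence transposable elements. Their genes arose by tandem duplication and stand in clusters of close relatives, most of all on chromosome 19. RNAs crosslinked to chromatin mostly meet DNA near the gene that made them, so clustered genes place each RNA beside its relatives.

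ZNF680, ZNF107, ZNF138 and ZNF117 form a cluster on chromosome 7. Of the ZNF RNAs listed in R320* alone, ZNF680 and ZNF107 had the most connections. The 250 bases upstream of the RefSeq start are printed for ZNF680, ZNF107 and ZNF138, but not for ZNF117. Those of ZNF92, a neighbour these RNAs contact, and of ZNF595, a member at the end of chromosome 4, are printed too. Coordinates are GRCh38.p14, and each stretch lies in a promoter element of the deposited table. They are chr7:64563072-64563321 on the minus strand for ZNF680 and, all on the plus strand, chr7:64665883-64666132 for ZNF107, chr7:64794178-64794427 for ZNF138, chr7:65373605-65373854 for ZNF92 and chr4:53071-53320 for ZNF595. Capitals mark ATGCAAAT (the octamer bound by POU factors), CCAAT (the NF-Y box) and TTCCGG (the core of ETS sites), each also searched on the other strand as ATTTGCAT, ATTGG and CCGGAA. No match overlaps another.
ZNF680: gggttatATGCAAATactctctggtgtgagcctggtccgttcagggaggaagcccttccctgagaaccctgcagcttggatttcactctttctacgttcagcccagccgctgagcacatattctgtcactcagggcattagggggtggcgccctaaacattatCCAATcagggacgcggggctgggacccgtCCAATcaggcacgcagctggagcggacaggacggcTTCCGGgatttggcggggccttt
ZNF107: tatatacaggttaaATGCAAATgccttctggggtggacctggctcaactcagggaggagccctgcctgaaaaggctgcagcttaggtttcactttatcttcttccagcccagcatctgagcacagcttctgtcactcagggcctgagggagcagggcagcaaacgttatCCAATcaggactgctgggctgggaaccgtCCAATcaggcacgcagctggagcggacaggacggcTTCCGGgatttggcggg
ZNF138: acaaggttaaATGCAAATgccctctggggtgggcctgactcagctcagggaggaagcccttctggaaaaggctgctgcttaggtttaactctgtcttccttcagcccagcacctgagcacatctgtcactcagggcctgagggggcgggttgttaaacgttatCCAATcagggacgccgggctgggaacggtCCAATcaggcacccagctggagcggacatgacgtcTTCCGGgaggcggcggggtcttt
ZNF92: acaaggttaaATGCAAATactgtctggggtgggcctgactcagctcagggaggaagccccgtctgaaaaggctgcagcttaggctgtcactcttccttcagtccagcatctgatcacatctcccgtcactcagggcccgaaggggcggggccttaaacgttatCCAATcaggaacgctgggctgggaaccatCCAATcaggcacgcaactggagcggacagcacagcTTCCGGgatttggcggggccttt
ZNF595: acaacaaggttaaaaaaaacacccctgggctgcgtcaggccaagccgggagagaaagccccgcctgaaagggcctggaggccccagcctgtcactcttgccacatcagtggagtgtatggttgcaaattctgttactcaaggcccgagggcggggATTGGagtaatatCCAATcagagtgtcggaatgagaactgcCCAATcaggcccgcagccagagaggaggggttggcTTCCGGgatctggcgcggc

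The 4 chromosome 7 promoters held the octamer, a pair of CCAAT boxes and the ETS core in the same order. Pairwise identity over the aligned bases and gaps was 77.9% for ZNF680 and ZNF107, 80.3% for ZNF680 and ZNF138, 81.7% for ZNF107 and ZNF138 and 84.6% for ZNF138 and ZNF92. ZNF595 was 61.4% to 65.8% identical to these and lacked the octamer. Promoters of 4 members outside the cluster (ZNF789, ZNF586, ZNF544 and ZNF83) were 44.4% to 50.5% identical to the 4, which is the level this alignment gives for unlike sequences here. Of the 31 members, 26 had a promoter in the RefSeq table, and ZNF521, ZNF618, ZNF654, ZNF706 and ZNF721 had none. The ETS core was in 13 of the 26 members' promoters, 38.2% of 508 ZNF promoters and 19.3% of 15843 protein-coding promoters of the same length. CCAAT was in 42.3%, 44.7% and 34.5% of these 3 sets, and the octamer in 11.5%, 3.54% and 1.65%. The RUNX core (TGTGGT or TGCGGT, either strand) was in 15.4%, 15.2% and 15.3%, and none of the 5 printed stretches held it. These motifs were chosen after the sequences were seen.

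The 31 ZNF RNAs came from 14 chromosomes, 8 from chromosome 7 and 4 from chromosome 19. RefSeq lists 517 protein-coding ZNF genes, so 6.0% of them had a listed RNA, against 12.03% of 19539 other protein-coding genes. The shortfall was on chromosome 19, where 4 of 250 ZNF genes (1.60%) had a listed RNA, against 27 of 267 (10.1%) on the other chromosomes. Other genes of chromosome 19 were also rarely listed, at 41 of 1201 (3.41%). On chromosome 7 the ZNF genes reached 22.9% (8 of 35), against 20.9% of 903 other genes. Transcript levels were not used here. As a check of the cell type, 6 of 14 erythroid markers had listed RNAs, among them the fetal and embryonic globins HBG2 (196 connections in R320*, 154 in WT) and HBE1 (192 in R320*, 152 in WT). Of 4 megakaryocytic markers ITGA2B alone was listed (5 in R320*, 5 in WT), and none of the myeloid, lymphoid and non-blood markers was.

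The ZNF RNAs held 1044 of 115357 connections, at 924 elements. R320* listed 828 of them and WT 741, and 525 were listed in both (50.3%, against 48.5% for the other protein-coding RNAs). The median ZNF RNA had 28 connections in R320* and 28 in WT, beside 30 in R320* and 27 in WT for the other protein-coding RNAs. Chromatin contacts were mostly near the gene. Of the placed own-chromosome contacts of ZNF RNAs, 81.8% in R320* and 79.1% in WT lay within 1 Mb, against 73.0% in R320* and 75.0% in WT for the other protein-coding RNAs. The median distance was 330 kb in R320* and 336 kb in WT for the ZNF RNAs. Only 3.02% of ZNF connections in R320* and 4.86% in WT lay on another chromosome, against 9.69% in R320* and 10.8% in WT for the other RNAs. Promoters made up 38.9% of ZNF connections in R320* and 39.7% in WT, and enhancers the rest.

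**Figure D1:**
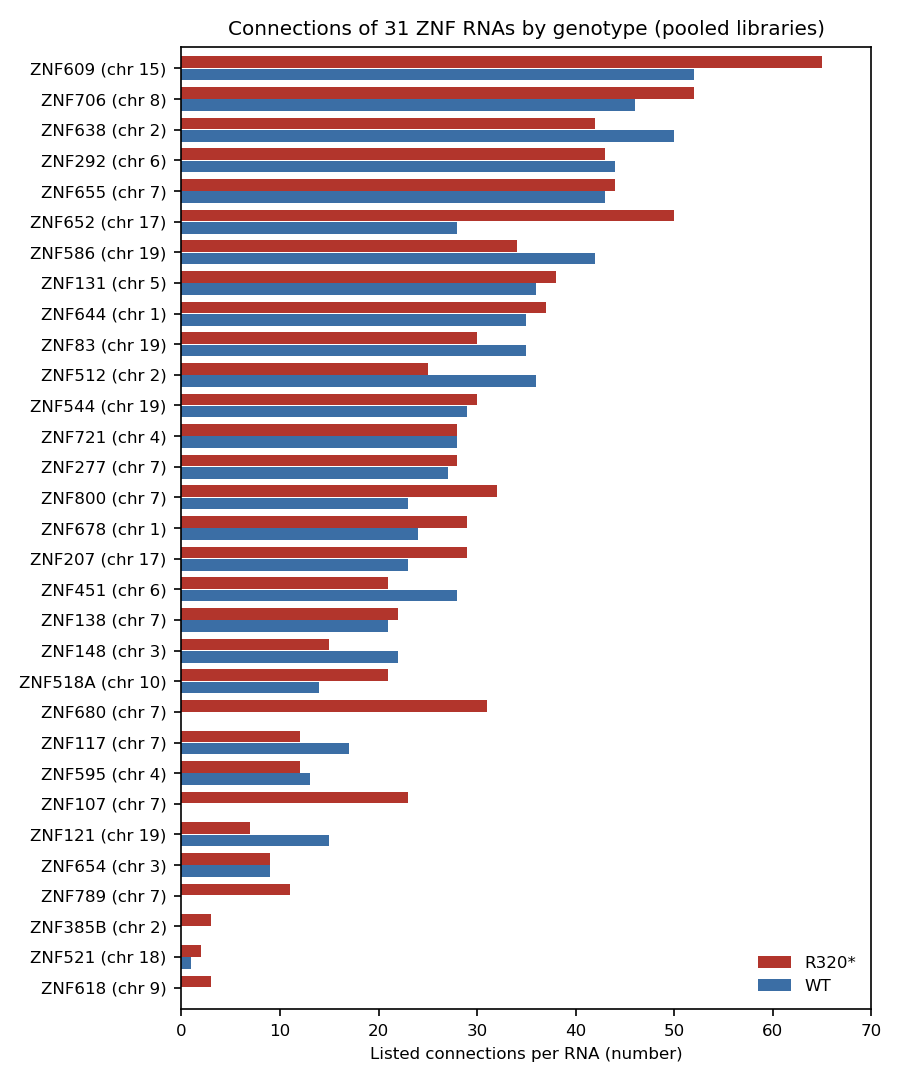
Listed connections per ZNF RNA (x axis, number) for each of the 31 RNAs (y axis, with chromosome), with R320* in red above WT in blue, 1 pooled value per genotype. ZNF609 has the most (65 in R320*, 52 in WT), and 5 RNAs have a bar in R320* alone.

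Scores fell with distance from the gene up to 10 Mb. In R320* the median score of ZNF connections was 2.53 for elements overlapping the gene, 2.30 under 100 kb, 1.96 from 100 kb to 1 Mb and 1.69 from 1 to 10 Mb. In WT it was 2.71, 2.25, 1.90 and 1.63 in the same bins. Beyond 10 Mb it was 1.49 over 13 connections in R320* and 1.67 over 22 in WT, where it was above the bin before. The other protein-coding RNAs had lower medians in each of the bins, for example 1.78 in R320* and 1.74 in WT from 100 kb to 1 Mb. The share of ZNF connections found in both genotypes also fell, with 82.3% under 100 kb, 55.8% from 100 kb to 1 Mb, 26.5% from 1 to 10 Mb and 9.38% of the 32 connections beyond 10 Mb. A listed contact far from its gene was therefore seldom one that both genotypes shared, for ZNF RNAs and for the others (9.29% beyond 10 Mb).

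**Figure D2:**
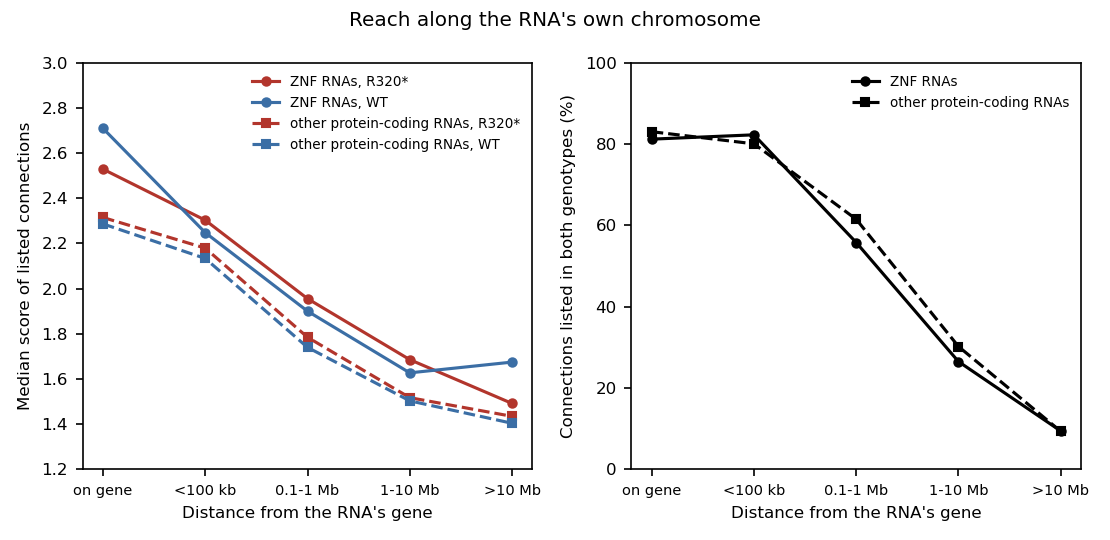
Left, median score of listed connections (no unit) by distance from the RNA's gene, for ZNF RNAs (solid) and other protein-coding RNAs (dashed) in R320* (red) and WT (blue). Right, percent of connections listed in both genotypes, which falls from above 80% near the gene to below 10% beyond 10 Mb in both sets of RNAs.

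Every ZNF RNA had a local contact, an element the table assigns to the RNA's own gene region, in each genotype that listed it. Across the 47 local connections found in both genotypes the median score was 2.55 in R320* and 2.54 in WT. Differences ran from -0.09 (R320* minus WT, ZNF207 enhancer) to 0.18 (ZNF277 promoter), with a median of 0.03 and an SD of 0.06 over connections. Local scores thus differed little between genotypes, while they varied widely between RNAs. ZNF117, whose gene shares transcripts with the endogenous retrovirus locus ERV3-1, had the highest local score in R320*, at 3.31, against 3.23 in WT. ZNF609 scored 1.44 in R320* and 1.40 in WT at its own promoter and 1.39 in R320* and 1.35 in WT at its own enhancer, the lowest local scores among the RNAs with a mean of at least 25 connections. It was nonetheless the ZNF RNA with the most connections. Some local elements carry the name of an overlapping or adjoining gene: DOCK4 for ZNF277, PIGG for ZNF721, CGGBP1 for ZNF654 and ZNF394 for ZNF789. The sources used here do not say whether counting used strand, so reads of such neighbours may be mixed.

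ZNF609, which in mouse neural progenitors acts with the cohesin loader NIPBL and with Integrator, had 65 connections in R320* and 52 in WT. ZNF706, a small zinc finger protein, had 52 in R320* and 46 in WT. ZNF638, also called NP220, which silences unintegrated retroviral DNA together with the HUSH complex, had 42 in R320* and 50 in WT. These 3 had the highest means over the genotypes, and ZNF638 alone of them had fewer connections in R320*. ZNF292, a gene mutated in neurodevelopmental disorders, had 43 in R320* and 44 in WT. ZNF655, which binds the signalling protein VAV1, had 44 in R320* and 43 in WT. ZNF131, a BTB-domain zinc finger protein, had 38 in R320* and 36 in WT. These 3 were nearly level between the genotypes. ZNF644, a partner of the H3K9 methyltransferases G9a and GLP, had 37 in R320* and 35 in WT.

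Genotype ratios were compared for the 17 ZNF RNAs listed in both genotypes with a mean of at least 25 connections. None reached a 2-fold difference in either direction, where 0.619% of all 1293 RNAs compared this way were at least 2-fold higher and 0.619% at least 2-fold lower in R320*. Connections were more numerous in R320* for 11, fewer for 5 and equal for ZNF721. Over all RNAs 58.5% were higher and 36.4% lower by any amount. The median log2 ratio was 0.05 for the ZNF RNAs and 0.08 for all RNAs, and centring on all RNAs turned the ZNF median to -0.03. ZNF652, a repressor that works with the corepressor CBFA2T3, stood furthest apart. It had 50 connections in R320* and 28 in WT (log2 0.84), the only one of the 17 past 1.5-fold, where the background is 5.41% higher and 2.71% lower. Of its connections, 26 were listed in R320* alone, 4 in WT alone and 24 in both. Those within 1 Mb numbered 49 in R320* and 25 in WT, so the surplus lay around the gene, while its local enhancer scored 2.45 in R320* and 2.41 in WT. ZNF652 connections at other chromosomes were listed in neither genotype.

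The next ZNF RNAs by ratio were ZNF800 (32 connections in R320*, 23 in WT, log2 0.48) and ZNF207 (29 in R320*, 23 in WT, log2 0.33). ZNF800 represses enteroendocrine differentiation in human intestinal organoids, and ZNF207 (BuGZ) helps load BUB3 at kinetochores. In the other direction stood ZNF512, with 25 in R320* and 36 in WT (log2 -0.53), all within 1 Mb. It had 12 connections in WT alone and 1 in R320* alone. ZNF586 of chromosome 19 followed with 34 in R320* and 42 in WT (log2 -0.30). The ZNF RNAs thus differed among themselves in direction, and no ratio has an error. Below the minimum of 25, ZNF121 had 7 connections in R320* and 15 in WT (log2 -1.10). ZNF148 (ZBP-89) had 15 in R320* and 22 in WT, and ZNF451, a SUMO ligase, had 21 in R320* and 28 in WT. ZNF518A had 21 in R320* and 14 in WT. ZNF521, a cofactor of blood progenitors, had 2 in R320* and 1 in WT, all at its own gene.

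**Figure D3:**
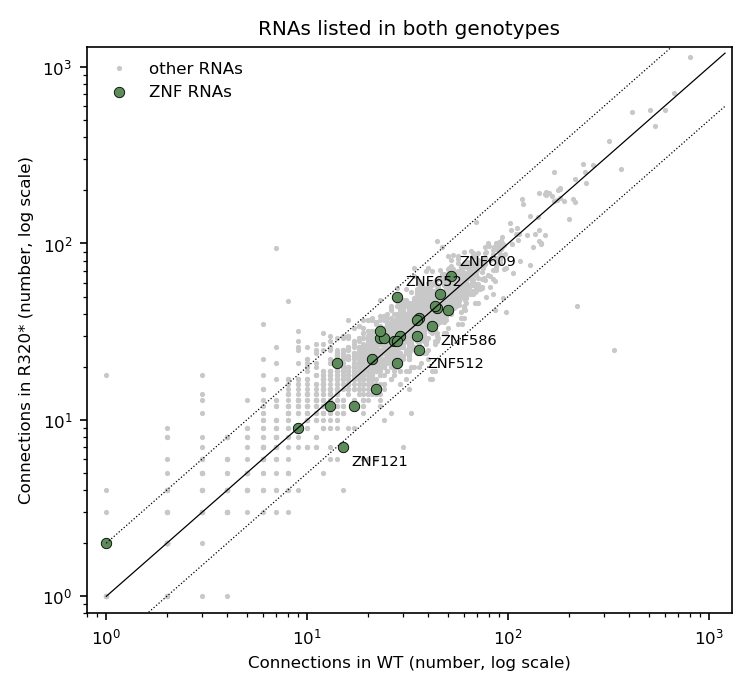
Connections per RNA in R320* (y axis, number, log scale) against WT (x axis, number, log scale) for RNAs listed in both genotypes, with ZNF RNAs in green and other RNAs in grey. The solid line marks equal numbers and the dotted lines 2-fold, and ZNF652 (50 in R320*, 28 in WT) is the compared ZNF RNA furthest above the solid line.

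Listing in 1 genotype alone went one way. ZNF680 (31 connections), ZNF107 (23), ZNF789 (11), ZNF385B (3) and ZNF618 (3) were listed in R320* and not in WT, and no ZNF RNA was listed in WT alone. Over all RNAs, 8.61% were listed in R320* alone and 10.4% in WT alone, and over protein-coding RNAs 7.97% and 9.82%. The 3 RNAs with most connections among the 5 came from chromosome 7, where 6.37% of protein-coding RNAs were listed in R320* alone and 5.39% in WT alone. ZNF385B, on chromosome 2, and ZNF618, on chromosome 9, rested on 3 connections each.

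The chromosome 7 cluster, whose 4 genes encode C2H2 zinc finger proteins, spans 492 kb, from the start of ZNF680 to the end of ZNF117. ZNF680 (chromosome 7, 64499069 to 64563071) and ZNF107 (64666133 to 64711577) are next to ZNF138 (64794428 to 64860823) and ZNF117 (64971772 to 64991036). ZNF138 had 22 connections in R320* and 21 in WT, and ZNF117 had 12 in R320* and 17 in WT. The 4 RNAs met 38 elements, 17 of which were met by all 4, and 9 of those 17 belonged to ZNF genes. At the 17 shared elements, ZNF680 scored a median of 2.40 in R320* and ZNF107 a median of 2.68 in R320*, with no listed contact in WT. The 17 were picked as met by all 4 RNAs in either genotype. ZNF680 and ZNF107 had no connection in WT, so their presence at all 17 in R320* was fixed by this choice. ZNF138 scored a median of 2.61 at 16 of them in R320* and 2.56 at 15 in WT. ZNF117 scored 2.25 at 11 in R320* and 2.17 at 16 in WT. The median scores of ZNF138 and ZNF117 at the same elements were close between the genotypes. Single scores of these were not all close: at an AC104073.4 enhancer ZNF138 scored 1.23 in R320* and 2.28 in WT, and at an AC092161.1 enhancer ZNF117 scored 1.81 in R320* and 2.63 in WT.

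Elements at the ZNF genes of the cluster were as follows. At the ZNF138 promoter (64792599 to 64796170), ZNF107 scored 3.08, ZNF138 2.81, ZNF680 2.60 and ZNF117 2.01 in R320*, against 2.78 for ZNF138 and 1.94 for ZNF117 in WT. At the ZNF107 promoter (64665581 to 64667886), ZNF138 scored 2.57 in R320* and 2.50 in WT, and ZNF117 scored 2.25 in R320* and 2.17 in WT. The ZNF107 RNA itself scored 2.53 there in R320* and was not listed in WT, so its promoter stayed in contact with neighbouring RNAs in both genotypes. The elements of ZNF680 differed from this. Its 7 elements had 15 connections in R320* (7 of ZNF680, 4 of ZNF138, 3 of ZNF107 and 1 of the SKI RNA) and 0 in WT from any RNA. At the ZNF680 enhancer (64541461 to 64542431), ZNF680 scored 2.95, ZNF107 2.86 and ZNF138 2.78 in R320*, and at its promoter (64562177 to 64563602) they scored 2.33, 2.41 and 2.28. At the promoter and enhancer of ZNF92, ZNF138 scored 2.43 and 2.51 in R320* and was not listed in WT. ZNF117 scored 2.53 and 2.49 there in R320*, against 2.11 and 2.27 in WT.

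Neighbouring RNAs outside the family were listed in both genotypes, with 67 connections in R320* and 48 in WT for VKORC1L1 and 38 in R320* and 36 in WT for RABGEF1. The promoters of ZNF680, ZNF107 and ZNF138 are alike in sequence. That of ZNF117 was not aligned, and the transcripts of the cluster were not compared. The sources used here do not say how reads that fit several places were treated. Counts could thus be split between relatives, and values of the single RNAs are uncertain.

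**Figure D4:**
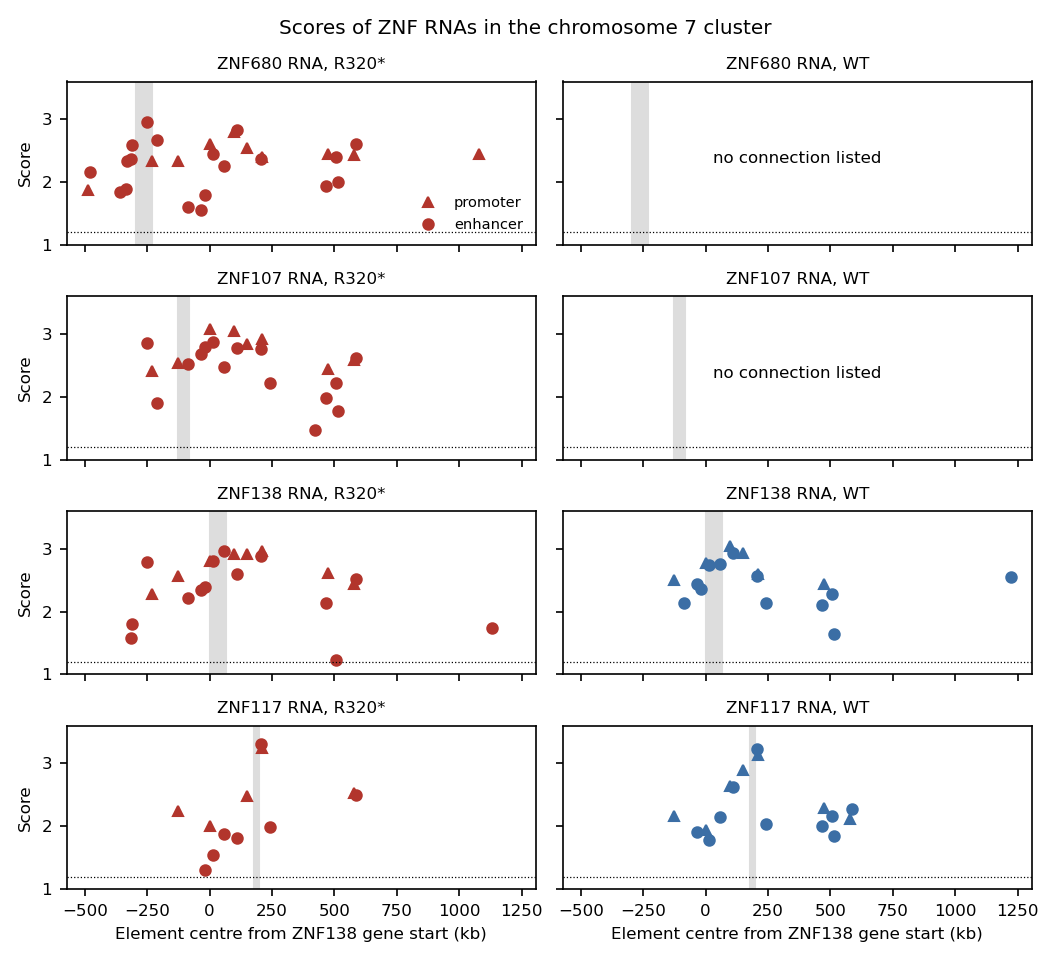
Scores (y axis) of the ZNF680, ZNF107, ZNF138 and ZNF117 RNAs at elements within 1300 kb of the ZNF138 gene start (x axis, kb), with R320* in the left column and WT in the right. Triangles are promoters, circles enhancers, the grey band the RNA's own gene and the dotted line the minimum of 1.2, and the panels of ZNF680 and ZNF107 in WT are empty.

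ZNF789 lies apart from this cluster, at 99472890 to 99487605 on chromosome 7, close to ZNF655 (99558642 to 99576453). All 11 of its elements were also met by ZNF655. At the enhancer of ZNF394, which overlaps the ZNF789 gene, ZNF789 scored 3.18 in R320* and was not listed in WT, while ZNF655 scored 2.11 in R320* and 1.66 in WT. At the ZNF394 promoter ZNF789 scored 2.78 in R320* and was not listed in WT, and ZNF655 scored 2.10 in R320* and 2.15 in WT.

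Contacts with other ZNF loci, meaning elements whose nearest gene is another ZNF gene, numbered 131 connections of 14 RNAs at elements of 63 genes. Own gene was judged by symbol, so the 2 local elements of ZNF789, named after ZNF394, count among them. Of the 131, R320* listed 109 and WT 77, with 55 in both, 54 in R320* alone and 22 in WT alone. Of the 54, 27 came from the RNAs listed in R320* alone. Without those RNAs R320* listed 82 and WT 77, so the surplus came mostly from ZNF680, ZNF107 and ZNF789. These contacts made up 13.2% of ZNF connections in R320* and 10.4% in WT, against 0.930% in R320* and 0.868% in WT for the other protein-coding RNAs. ZNF loci were also common nearby. When each of the 31 RNAs was paired with the listed elements within 1 Mb of its gene, 12.2% of pairs were at other ZNF loci. Of the pairs contacted in either genotype, 16.3% were. The contacts with other ZNF loci were near, with 129 on the RNA's own chromosome, 122 within 1 Mb and a median distance of 235 kb. By chromosome, 69 were from RNAs of chromosome 19, 48 of chromosome 7, 10 of chromosome 4 and 4 of chromosome 1.

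Among pairs listed in both genotypes, the one with the highest mean score was taken for each RNA. In those named here, the RNA's gene and the element lay 21.0 to 388 kb apart. ZNF586 scored 3.31 in R320* and 3.02 in WT at the promoter of ZNF587, 68.8 kb away. ZNF83 scored 2.90 in R320* and 2.67 in WT at an enhancer of ZNF611, 32.2 kb away. ZNF138 scored 2.97 in R320* and 2.60 in WT at the promoter of ZNF117, 143 kb away. Each of these pairs scored higher in R320*, and all pairs named here were picked by their score. ZNF544 scored 2.58 in R320* and 2.35 in WT at the promoter of ZNF497. ZNF117 scored 2.49 in R320* and 2.27 in WT at an enhancer of ZNF92. ZNF121 scored 2.16 in R320* and 2.02 in WT at the promoter of ZNF426. The pairs on chromosome 4 and in the ZNF655 region went slightly the other way. ZNF721 scored 2.34 in R320* and 2.39 in WT at the ZNF595 promoter, 385 kb away at the chromosome end. ZNF655 scored 2.10 in R320* and 2.15 in WT at the ZNF394 promoter. Of the 55 pairs in both genotypes 37 scored higher in R320*, with a median difference of 0.08. Most shared connections did so: 61.7% of those of ZNF RNAs (median 0.05) and 58.6% of those of all RNAs (median 0.04). Of 10 pairs of members with a contact between them in either genotype, 7 were reciprocal, each RNA meeting an element of the other's gene. This count joins the genotypes. In WT only ZNF117 and ZNF138 met each other. ZNF544 met ZNF586 in R320* alone and ZNF586 met ZNF544 in WT alone, so this pair was reciprocal in neither genotype.

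Contacts were also set against the elements on offer, counted within 1 Mb for the 13 RNAs that had a ZNF element in that window. Pooled over these RNAs, they contacted 122 of 163 elements at other ZNF genes (74.8%) and 184 of 412 other elements (44.7%), own gene left out. Within 250 kb the shares were 89.5% and 65.0%, from 250 to 500 kb 66.7% and 56.6%, and from 500 kb to 1 Mb 56.4% and 30.97%, ZNF elements before other elements. An element enters the table only if some RNA contacts it, so an element met by the ZNF RNA alone counts in its favour. Among elements that another RNA met too, the shares were 67.2% (84 of 125) at other ZNF genes and 43.3% (174 of 402) elsewhere. The same ZNF elements are counted for several RNAs, and RNAs of 1 cluster share their surroundings, so the pairs are not independent. The gap also differed between RNAs. With own-gene elements counted among the others, ZNF121 contacted 100% of ZNF elements and 19.1% of others, and ZNF789 80% and 9.21%. The ZNF elements of ZNF789 include its local ones, named after ZNF394. The shares were close or equal for ZNF586 (96% and 95%), ZNF107 (64.7% and 63.2%) and ZNF83 (100% and 100%). ZNF544 alone went the other way (41.7% and 90%).

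**Figure D5:**
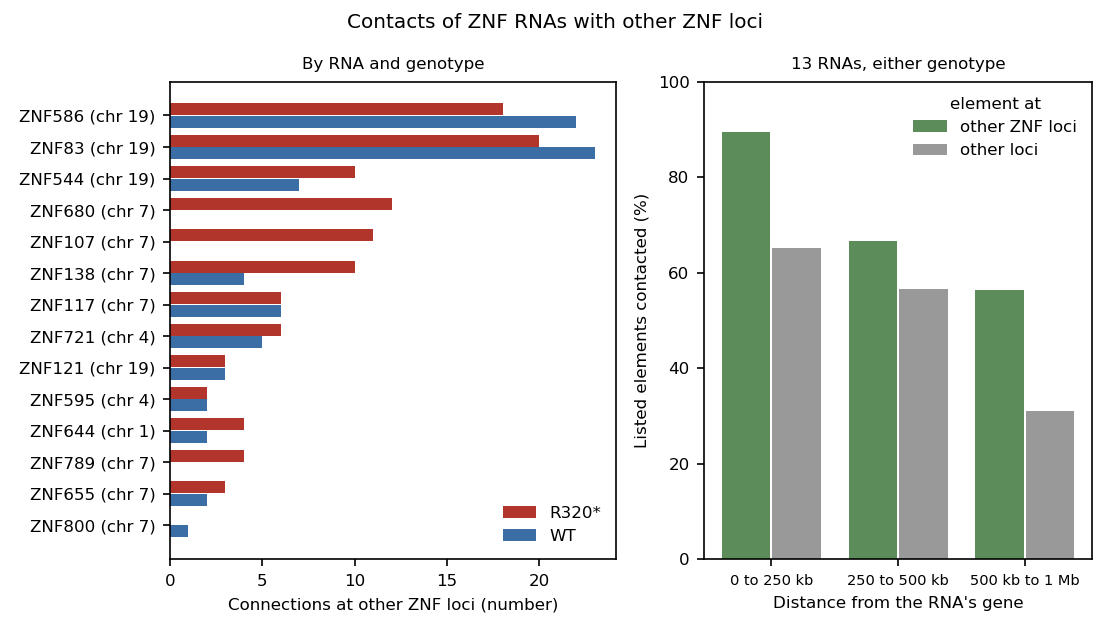
Left, connections at other ZNF loci (x axis, number) for the 14 ZNF RNAs that had any, with R320* in red above WT in blue. Right, percent of listed elements contacted in either genotype by the 13 ZNF RNAs with a ZNF element within 1 Mb, by distance, for elements at other ZNF genes (green) and at other genes (grey), where green is higher in each of the 3 bins.

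Chromosome 19 and the other chromosomes were set side by side. The 4 chromosome 19 RNAs (ZNF586, ZNF83, ZNF544 and ZNF121) had a median of 30 connections in R320* and 32 in WT, against 28 in R320* and 27.5 in WT for the 27 ZNF RNAs of other chromosomes. Other protein-coding RNAs of chromosome 19 had 23 in R320* and 22 in WT. Contacts with other ZNF loci were 50.5% of the connections of the chromosome 19 ZNF RNAs in R320* and 45.5% in WT, against 7.98% in R320* and 3.55% in WT for ZNF RNAs elsewhere. For other protein-coding RNAs of chromosome 19 they were 6.05% in R320* and 4.86% in WT. Of the listed elements within 1 Mb, counted per chromosome 19 ZNF RNA, 44.8% were at other ZNF loci. Of those contacted in either genotype, 53.4% were. Promoters made up 62.4% of the connections of the chromosome 19 ZNF RNAs in R320* and 59.5% in WT, against 35.6% in R320* and 35.8% in WT for ZNF RNAs elsewhere. Other protein-coding RNAs of chromosome 19 were between these, at 47.0% in R320* and 44.9% in WT. Of all listed elements of chromosome 19, 46.4% were promoters, and of those at ZNF genes 60%. Chromosome 19 ZNF RNAs thus met mostly promoters, many of them of relatives, but ZNF status and position in a cluster cannot be told apart here. All 4 were listed in both genotypes, and connections were fewer in R320* for 2 of the 3 compared, ZNF586 and ZNF83, and more for ZNF544 by 1 connection. The direction of ZNF83 turned with scores of at least 1.5 (28 in R320*, 24 in WT), and that of ZNF586 turned when connections within 1 Mb were merged (2 in R320*, 1 in WT).

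ZNF83 had 30 connections in R320* and 35 in WT, and contacted 33 of 33 listed elements within 1 Mb, 24 of them at other ZNF genes. Of the 31 outside its own gene, only 6 were met by any other RNA, so most of this stretch is in the table through ZNF83 alone. Within 1 Mb its contacts ran from ZNF577 (promoter, not listed in R320*, 1.67 in WT) to ZNF845 (promoter, 1.36 in R320*, not listed in WT). In between lay ZNF888 (promoter, 2.35 in R320*, 2.04 in WT) and ZNF816 (promoter, 2.20 in R320*, 1.74 in WT). ZNF586 contacted 43 of 45 elements within 1 Mb and ZNF544 28 of 44. These RNAs, whose genes lie close to the end of the long arm, shared 27 elements. Both met the promoter of TRIM28, the KRAB corepressor (chromosome 19, 58542246 to 58546946). ZNF544 scored 2.30 in R320* and 2.25 in WT there, and ZNF586 2.11 in R320* and 2.10 in WT. Only 2 other RNAs met this promoter, each in 1 genotype. Both also met the promoter of ZNF274, which recruits SETDB1 to ZNF genes, with 1.87 in R320* and 1.79 in WT for ZNF544 and 2.24 in R320* and 1.87 in WT for ZNF586. ZNF544 met only 10 of the 24 ZNF elements within 1 Mb.

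Score differences of connections in both genotypes were small. Of 525 such ZNF connections, 0 were at least 1 unit higher in R320* (0.0998% of all 52089) and 1 was at least 1 unit lower (0.0749%). The median difference was 0.05 with an SD of 0.27 over connections, against 0.04 and 0.25 for all RNAs, and 61.7% were above 0, against 58.6%. The 1 connection joined ZNF138 to an enhancer of AC104073.4, at 1.23 in R320* and 2.28 in WT, 439 kb from the gene. ZNF586 scored 1.34 in R320* and 2.33 in WT at the promoter of ZNF584. ZNF207 scored 1.31 in R320* and 2.30 in WT at the promoter of AC116407.2. In these 3 cases the R320* score lay just above the minimum of 1.2. Next were ZNF721 at a SPON2 enhancer (1.33 in R320*, 2.18 in WT) and ZNF117 at an AC092161.1 enhancer (1.81 in R320*, 2.63 in WT). Higher in R320* were ZNF678 at an IBA57 enhancer (2.12 in R320*, 1.25 in WT) and ZNF292 at the promoter of ORC3, a subunit of the origin recognition complex (2.51 in R320*, 1.66 in WT). They also included ZNF652 at an AC091180.5 enhancer (2.24 in R320*, 1.42 in WT), ZNF638 at an enhancer of DYSF, the muscle membrane repair gene (2.11 in R320*, 1.36 in WT), and ZNF277 at a PNPLA8 enhancer (2.32 in R320*, 1.61 in WT).

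Contacts with other chromosomes were few and none was shared. There were 61, from 12 ZNF RNAs, with 25 in R320* alone, 36 in WT alone and 0 in both. Among other protein-coding RNAs 12.4% of such contacts were in both. Counted by RNA, sharing none was usual: 612 of the 764 other protein-coding RNAs with such contacts shared none. Of those other RNAs with no more than 14 such contacts each, the most a ZNF RNA had, 7.25% of 2675 contacts were in both. Adjoining elements were often listed together, so the 61 form 28 places, 11 in R320* and 17 in WT, taking elements within 1 Mb as 1 place per RNA. The median score was 2.27 in R320* and 2.38 in WT, against 1.99 in R320* and 1.95 in WT over all ZNF connections. Of the 61, 36 exceeded the highest local score of their RNA in that genotype, and they came from 11 of the 12 RNAs. For ZNF609 that local score was low, at 1.44 in R320* and 1.40 in WT. The same share was not computed for other RNAs. ZNF638 had most, with 5 in R320* and 9 in WT, and ZNF609 had 8 in R320* and 4 in WT.

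ZNF609 and ZNF638 met the same place on chromosome 11 in R320*, the gene of MALAT1, an abundant nuclear long noncoding RNA. ZNF609 scored 2.29 and ZNF638 2.55 at the MALAT1 promoter in R320*, and both were unlisted there in WT. At the MALAT1 enhancer they scored 2.14 and 2.30 in R320*. These elements are met by many RNAs in both genotypes, 187 in R320* and 190 in WT at the promoter. ZNF595 of chromosome 4 met 2 enhancers of ZNF138 on chromosome 7, which were not listed for it in R320* and scored 3.23 and 3.21 in WT. These were the only contacts between ZNF loci of different chromosomes. ZNF121 met the promoter of MCL1, a survival factor of the BCL2 family, at 3.17 in R320*, and the promoter of PABPC1, the poly(A)-binding protein, at 3.39 in WT. ZNF655 met the promoter of JTB on chromosome 1 at 3.27 in WT. ZNF678 met an enhancer of KLHDC10 on chromosome 7 at 3.29 in WT, and ZNF518A the promoter of MDC1, a DNA damage response gene, at 2.98 in R320*.

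Genes that work with KRAB proteins were described beside the ZNF RNAs. Of 29 genes of the KRAB corepressor machinery 11 had listed RNAs, 7 of them in both genotypes, with more connections in R320* for 6 and fewer for 1. Over all genes, 11.9% of RefSeq protein-coding genes had a listed RNA, 58.5% of RNAs compared had more and 36.4% fewer connections in R320*, and 7.97% of protein-coding RNAs were listed in R320* alone and 9.82% in WT alone. The bromodomain relatives of TRIM28 had the most: TRIM33 with 72 in R320* and 53 in WT, and TRIM24 with 71 in R320* and 64 in WT. CBX5 (HP1 alpha) had 24 in R320* and 35 in WT. ATF7IP, the SETDB1 partner, was listed with 14 connections in R320* and not in WT, as were DNMT1 (22) and DNMT3A (14), the maintenance and de novo DNA methyltransferases. PPHLN1 of the HUSH complex was not listed in R320* and had 20 connections in WT. Only 4 of the 7 had the mean of at least 25 that the 58.5% and 36.4% rest on. Of these, TRIM33, TRIM24 and EHMT1 had more connections in R320* and CBX5 had fewer, and none reached 2-fold. Of 13 RNAs of other zinc finger families, 9 were in both genotypes, with more connections in R320* for 7, fewer for ZFPM2 and equal for ZBTB16. Only 5 of the 9 had a mean of at least 25, namely CTCF, IKZF1, SP3 and ZKSCAN1 with more and ZFPM2 with fewer. SP3 had 42 in R320* and 26 in WT, and CTCF, the insulator protein, had 42 in R320* and 40 in WT. SP4, ZBTB44 and ZFP91 were listed in R320* and not in WT, and ZBTB38 was not listed in R320* but was in WT. Neither list was tested against these shares.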

How the data were processed

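GRID-seq libraries of K562 cells with RUNX1 R320* and WT RUNX1 were grouped by genotype, as labelled. Per the submitters' processing notes, the tools were cutadapt 1.12, BWA and bedtools and the build was hg38. The authors deposited 1 table of connections with a score per genotype, pooled over libraries. The sources used here do not give how the score was computed or scaled, or what separates the table's 2 blocks of elements (20020 and 13928). A score of 0 was read as not listed. Element starts, taken as 0-based, are printed 1-based.

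Connections were counted per RNA with Python 3.11.15 and pandas 2.3.3. No test was possible, since each genotype is 1 value and depth is unknown. Called means a 2-fold ratio of connection numbers (R320* over WT, mean of at least 25, listed in both) or a score difference of 1, as the score has no known ratio scale. Positions and promoters came from RefSeq (GRCh38.p14). Positions matched 2497 of 2637 RNAs and all 31 members, 0 of them on another chromosome. Distance runs from the nearest gene end. The first RefSeq promoter per gene was used, aligned globally with Biopython 1.88 (match 1, mismatch -1, gap open -3, extend -0.5).

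The members and lists were chosen with earlier results of these data known. Named RNAs were the 10 with most connections, up to 8 by log2 ratio in each direction, 5 by score difference in each direction, up to 8 pairs of ZNF loci, up to 4 listed in 1 genotype only, and up to 4 per list. Other named RNAs and elements, among them those of the chromosome 7 cluster, ZNF83 and other chromosomes, were chosen after their values were seen. Protein sequences were not used here. Alternatives are given in the closing section.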

Additional observations from a re-analysis of the deposited data

How the results depend on the processing

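No paired analysis was possible because the table is pooled by genotype, and leaving out each library could not be run for the same reason. The count of 0 ZNF RNAs at 2-fold held with own-chromosome connections only, with scores of at least 1.5, with centring, with a mean of at least 50 (1 RNA left) and in the first block of elements. With no minimum 1 was higher (ZNF521, 2 connections in R320* and 1 in WT) and 1 lower (ZNF121), and at 1.5-fold 1 was higher (ZNF652). The median log2 ratio moved to 0.17 with own-chromosome connections only and was 0.32 for the 1 RNA with a mean of 50. Merging connections within 1 Mb left a median of 2 in R320* and 2 in WT per ZNF RNA, and 1.5 in R320* and 1.5 in WT on chromosome 19. No ZNF RNA then passed the minimum, nor in the second block of elements, so these gave no count at 2-fold and no median ratio. Taken singly below the minimum, merging put ZNF652, ZNF609, ZNF512, ZNF644 and ZNF83 at a log2 ratio of 0. It turned ZNF586 (to 1), ZNF678 (to -1) and ZNF800 round. ZNF706 stood at 2 (4 in R320*, 1 in WT) and ZNF207 at 1 (2 in R320*, 1 in WT), so some single ratios reached 2-fold on few merged places. Scores of at least 1.5 turned ZNF83 to 0.22.

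The share of ZNF connections at other ZNF loci was 17.7% in R320* and 14.97% in WT over promoters, and 1.75% (3 of 171) in R320* and 3.83% (7 of 183) in WT beyond 1 Mb or on another chromosome. It was 10.8% in R320* and 10.4% in WT over RNAs listed in both genotypes. Among elements within 1 Mb that an RNA outside the family met, ZNF RNAs contacted 86.2% of those at other ZNF genes and 43.5% of the others. At a score difference of 0.5, 19 ZNF connections were higher and 18 lower in R320*, and centring on all shared connections gave 3 at least 1 unit lower. The blocks, the RNAs in both genotypes and the elements met by other RNAs were chosen as alternatives after seeing the data. The cause of each move was not tested.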
